A study of Homo sapiens with 10 samples.

Results

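MYC and PVT1, neighbouring genes on human chromosome 8, were followed across new and total RNA of K562 cells treated with 4 inhibitors of transcription. They were chosen by name and make up 2 of the 59204 human genes listed, and both passed the filters on low counts in the fits over all 10 libraries. After 2 hours, total MYC RNA stood at 24.3 to 35.8% of its level in DMSO with each of the 4 drugs, and total PVT1 RNA at 95.8 to 111%. Labelled RNA, which was made in the last 1 hour, was lower for MYC with every drug on the spike-in scale, and the labelled counts of PVT1 were few and varied more between libraries.

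MYC encodes a transcription factor of the basic helix-loop-helix leucine zipper class that binds DNA as a pair with MAX and drives genes of growth, ribosome production and the cell cycle. Its mRNA and its protein are both known for rapid turnover, and its transcription depends on distant enhancers. PVT1 is a long noncoding RNA gene just downstream of MYC. Its span holds several microRNA genes and enhancers that act on MYC in K562 cells, its promoter is known to compete with that of MYC for enhancers in some cell types, and its RNA has been reported to stabilise MYC protein.

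In the GENCODE release 29 annotation of GRCh38 (hg38), MYC (ENSG00000136997) runs on the plus strand from 127735434 to 127741434 of chromosome 8, with 9 annotated transcripts that end at 8 distinct 3′ ends. PVT1 (ENSG00000249859) runs on the same strand from 127794533 to 128101253, a span of 306.72 kb of which 5.493 kb is exonic, with 25 annotated transcripts and 21 distinct 3′ ends. A gap of 53.099 kb separates the end of MYC from the start of PVT1. No other listed gene overlaps MYC. The span of PVT1 holds 6 listed genes, and together they had 19 counts in all 10 libraries, all of them assigned to the small nuclear RNA gene RNVU1-32. The counts given here are per gene, and which 3′ end they come from was not analysed.

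K562 is an established human cell line from chronic myeloid leukemia that expresses erythroid and megakaryocytic genes. All 5 groups were treated for 2 hours and given 100 µM 4-thiouridine in the final 1 hour, and each group held 2 libraries. The groups were actinomycin D at 1 µg/mL, which binds DNA and blocks elongating polymerases, AZ-5576 at 1 µM, which inhibits the pause release kinase CDK9, JQ1 at 1 µM, which displaces BET proteins from acetylated chromatin, A-485 at 1 µM, which inhibits the acetyltransferases CBP and p300, and DMSO, the vehicle. 4-thiouridine is built into new RNA and read as T-to-C conversions (SLAM-seq), so labelled counts are reads of new RNA and total counts are all reads of a gene. Nothing in the labels says that the 2 libraries of a group came from separate cultures, so the spread between libraries may be technical. The p-values rest on that spread as shared over the 5 groups and across genes, and not on the libraries compared alone.

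Total human counts ran from 14916671 to 17918971 per library and labelled counts from 1410, with actinomycin D, to 448401, in DMSO. Levels are given as spike-scaled counts, the counts of a gene per 1000000 reads of the fly RNA that was added to the purified RNA, so they are per amount of RNA. They do not show how many cells there were or how much RNA each cell held. The markers of the line were present: 12 of 12 erythroid and megakaryocytic markers had a mean of at least 10 counts in DMSO, with a summed level of 32999 to 44790 across the 10 libraries. Of the lymphoid, myeloid and non-blood markers, 2 of 6, 2 of 6 and 2 of 5 did, and 1 marker of each list had no count in any library.

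In DMSO the 2 genes lay near opposite ends of the range of labelled shares. MYC had 109 and 108 labelled counts among 481 and 402 total counts in DMSO, a labelled share of 22.7% (95% Wilson interval 19.1 to 26.6) and 26.9% (22.8 to 31.4). PVT1 had 26 and 63 labelled counts among 5221 and 6150 total counts in DMSO, a share of 0.498% (0.340 to 0.729) and 1.02% (0.802 to 1.31). The median share over 10409 genes with a mean of at least 50 total counts in DMSO was 3.71%, and the shares of most genes lay between 0.806% and 13.3%, with 10% of genes below and 10% above this range. MYC, pooled over the 2 libraries at 24.6%, was above 97.3% of these genes, and PVT1, at 0.783%, was above 9.59% of them. Among 7238 genes with at least 200 counts the figures were 98.9% and 9.13%. The share also depends on how many T bases a read covers. The last 200 bases of annotated transcripts had a median of 20.5% T for MYC, 26.5% for PVT1 and 27.4% over all genes. Single transcripts ran from 15 to 43% for MYC and from 17.5 to 41.5% for PVT1. Which of these ends the reads came from is not known, and the part of T content in the shares was not tested. The 2 DMSO libraries differed from each other for PVT1 more than for most genes. Their labelled levels were 13.7 and 34.7 spike-scaled counts, a gap as wide as or wider than that of PVT1 in 2.05% of 3562 genes with like labelled counts in DMSO.

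The first comparison asked how far the standing MYC and PVT1 RNA had run down after 2 hours of each drug. Total MYC RNA fell with all 4 drugs, and total PVT1 RNA passed no test on the spike-in scale. MYC stood at 76.0 and 58.8 spike-scaled total counts under actinomycin D, 84.8 and 85.4 under AZ-5576, 59.7 and 60.6 under JQ1, 62.9 and 52.4 under A-485, and 253.76 and 221.16 in DMSO. All 8 drug libraries lay below both DMSO libraries. The raw counts behind these levels were 104 to 176 in the drug libraries and 402 and 481 in DMSO.

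**Figure D1:**
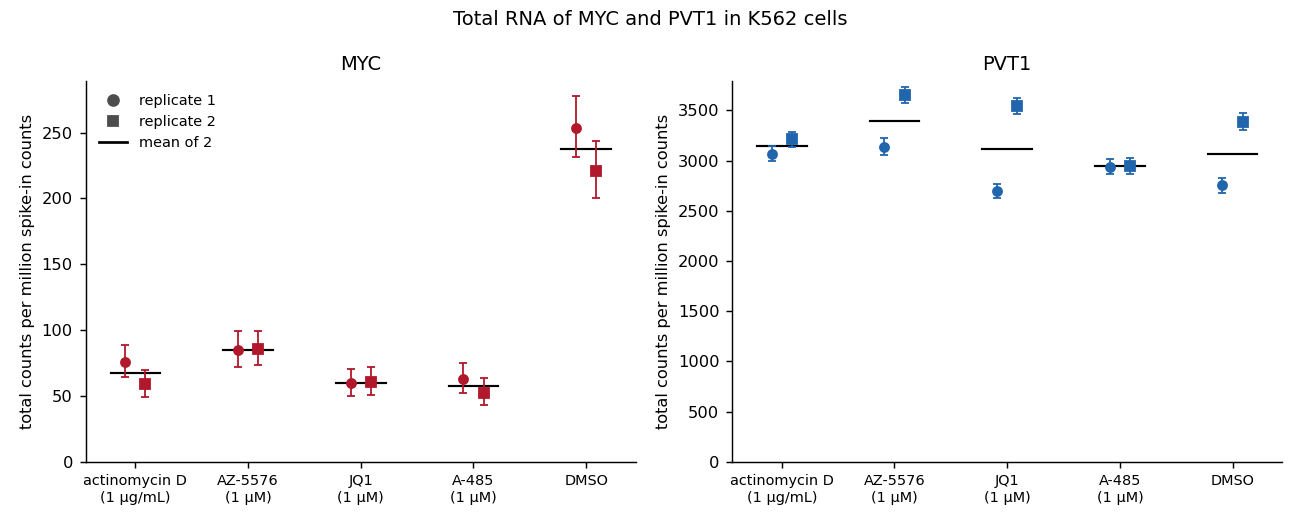
Spike-scaled total counts (y axis, from 0) of MYC (left) and PVT1 (right) in each library of the 5 groups; points are libraries, bars are exact 95% Poisson intervals that cover counting error only, and lines are means of 2. MYC sits at 52.4 to 85.4 in the drug libraries, against 221.16 and 253.76 in DMSO, and the PVT1 libraries of actinomycin D and A-485 lie within the DMSO range, those of AZ-5576 within and above it, and those of JQ1 on both sides of it.

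The means for MYC were 67.4 ± 12.2 under actinomycin D, 85.1 ± 0.464 under AZ-5576, 60.1 ± 0.656 under JQ1, 57.7 ± 7.44 under A-485 and 237 ± 23.0 in DMSO (SD, n = 2 each). As shares of the DMSO mean these are 28.4%, 35.8%, 25.3% and 24.3% in that order of the drugs. MYC fell by 1.82 on the log2 scale with actinomycin D (SE 0.19, n = 2, edgeR adjusted p = 2.1e-09), where 19.7% of 14572 genes tested were lower. It fell by 1.48 with AZ-5576 (SE 0.19, edgeR adjusted p = 1.8e-07), where 12.9% were lower. With JQ1 its log2 fold change was -1.98 (SE 0.19, edgeR adjusted p = 2.0e-09), where 7.35% were lower. With A-485 MYC fell by 2.04 (SE 0.19, edgeR adjusted p = 1.3e-09), where 1.2% of genes were lower. These calls were made in every alternative run, and without any 1 library the log2 fold changes stayed between -2.18 and -1.38. The 4 comparisons share the DMSO libraries.

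PVT1 stood at 3069 and 3213 spike-scaled total counts under actinomycin D, 3139.5 and 3653 under AZ-5576, 2693.5 and 3545.5 under JQ1, 2937 and 2946 under A-485, and 2754 and 3383 in DMSO. The JQ1 libraries lay on either side of the DMSO range, and each other drug had at least 1 library inside it. The means were 3141 ± 102 under actinomycin D, 3396 ± 363 under AZ-5576, 3119.5 ± 602 under JQ1, 2942 ± 6.19 under A-485 and 3069 ± 445 in DMSO (SD, n = 2 each), or 102%, 111%, 102% and 95.8% of DMSO. The log2 fold change of PVT1 was 0.03 with actinomycin D (95% interval -0.20 to 0.27, edgeR adjusted p = 0.883) and 0.15 with AZ-5576 (-0.09 to 0.38, adjusted p = 0.501). It was 0.02 with JQ1 (-0.21 to 0.26, edgeR adjusted p = 0.921) and -0.06 with A-485 (-0.29 to 0.17, adjusted p = 0.998). On the TMM scale, which assumes that most genes do not change and moved the median of all genes up by 0.25 under actinomycin D, 0.15 under AZ-5576, 0.20 under JQ1 and 0.05 under A-485, PVT1 was called higher under actinomycin D at 0.29 (edgeR adjusted p = 0.0393) and under AZ-5576 at 0.30 (adjusted p = 0.0352). Its sign on the spike-in scale turned with actinomycin D, JQ1 and A-485 when a DMSO library was left out.

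Set against each other within a library, the 2 genes need no scaling at all. There were 40.4 and 54.6 PVT1 counts for each MYC count under actinomycin D, 37.0 and 42.8 under AZ-5576, 45.2 and 58.5 under JQ1, 46.7 and 56.2 under A-485, and 10.9 and 15.3 in DMSO. Every drug library lay above both DMSO libraries. On the log2 scale the mean ratio was higher than in DMSO by 1.87 under actinomycin D, 1.63 under AZ-5576, 2.00 under JQ1 and 1.99 under A-485. The smallest two-sided p that a permutation of 2 against 2 libraries allows is 0.33, so a permutation test could not pass, and no other test of the ratio was run. The ratio compares libraries and is no measure of how many molecules of each gene a cell holds.

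The second comparison asked how much MYC and PVT1 RNA was still being made in the label hour. New MYC RNA fell with all 4 drugs. MYC had 0 and 0 labelled counts under actinomycin D, 7 and 9 under AZ-5576, 40 and 6 under JQ1, 7 and 19 under A-485, and 109 and 108 in DMSO. Spike-scaled, this is 0 and 0, 3.83 and 4.37, 18.1 and 2.84, 3.55 and 9.57 for the drugs in that order, against 57.5 and 59.4 in DMSO. No drug library reached the lower DMSO library, and the 2 JQ1 libraries differed from each other 6.37-fold. A gap as wide as that was found in 0.875% of 3884 genes with like labelled counts under JQ1.

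**Figure D2:**
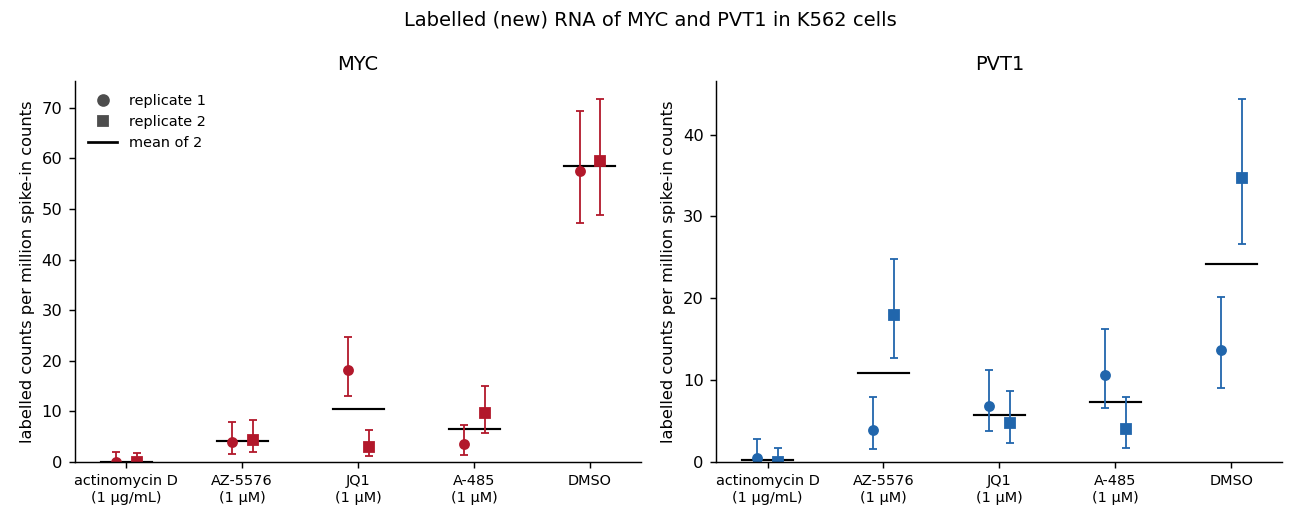
Spike-scaled labelled counts (y axis, from 0) of MYC (left) and PVT1 (right) in each library of the 5 groups; points are libraries, bars are exact 95% Poisson intervals that cover counting error only, and lines are means of 2. MYC stays at or under 18.1 in every drug library, against 57.5 and 59.4 in DMSO, while PVT1 libraries range from 13.7 to 34.7 within DMSO and from 3.83 to 18.0 within AZ-5576.

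With actinomycin D, MYC was at least 81.6-fold lower than in DMSO by a limit of 3 counts over the group. By an exact 95% interval of the counts of both groups it was at least 65.8-fold lower. MYC was called lower (edgeR adjusted p = 4.8e-26), where 99.2% of 7996 genes tested were. The mean level was 4.10 ± 0.382 with AZ-5576, or 7.01% of the 58.5 ± 1.35 in DMSO (SD, n = 2 each). That is a log2 fold change of -3.81 (SE 0.48, edgeR adjusted p = 1.3e-14), where 94.7% of genes were lower and the median gene stood at -5.94. On the TMM scale, which moved the median gene up by 2.83, the AZ-5576 value for MYC was -0.32 and was not called (edgeR adjusted p = 0.617), and with actinomycin D the call was lost (adjusted p = 0.0615).

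With JQ1 the mean labelled level of MYC was 10.5 ± 10.8, or 17.9% of DMSO, and its log2 fold change was -2.46 (SE 0.41, edgeR adjusted p = 1.7e-07), where 28.6% of genes were lower. The size rests on which JQ1 library is kept: it was -4.33 without JQ1 replicate 1 and -1.69 without JQ1 replicate 2, and called in both. With A-485 the mean was 6.56 ± 4.26, or 11.2% of DMSO, and the log2 fold change was -3.14 (SE 0.45, edgeR adjusted p = 3.8e-10), where 4.86% of genes were lower. It was -4.02 without A-485 replicate 2 and -2.60 without A-485 replicate 1, and called in both.

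New PVT1 RNA was called lower with each drug on the spike-in scale, but the calls with AZ-5576, JQ1 and A-485 did not outlast the removal of 1 library. PVT1 had 1 and 0 labelled counts under actinomycin D, 7 and 37 under AZ-5576, 15 and 10 under JQ1, 21 and 8 under A-485, and 26 and 63 in DMSO. Spike-scaled, the levels were 0.497 and 0, 3.83 and 18.0, 6.78 and 4.73, 10.7 and 4.03 for the drugs in that order, against 13.7 and 34.7 in DMSO. The AZ-5576 libraries overlapped DMSO, since replicate 2 lay above DMSO replicate 1, and the libraries of the other 3 drugs all lay below both DMSO libraries. With actinomycin D the level was 0.996% of DMSO (95% interval 0.0249 to 5.69, from 1 count against 89), and PVT1 was called lower (edgeR adjusted p = 9.1e-13), a call lost on the TMM scale (adjusted p = 0.494).

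On the TMM scale the log2 fold change of labelled PVT1 with AZ-5576 was 2.38 (edgeR adjusted p = 1.2e-05). That value is relative to the other genes, and 94.7% of all genes tested were lower on the spike-in scale. The log2 fold change of labelled PVT1 on the spike-in scale was -1.12 (SE 0.49, edgeR adjusted p = 0.0247), so its sign turns with the scaling. It was -0.42 without AZ-5576 replicate 1, -2.64 without AZ-5576 replicate 2 and -0.31 without DMSO replicate 2, and not called in the first and the last of these. With JQ1 it was -2.05 (SE 0.53, edgeR adjusted p = 0.00103), and -1.24 and not called without DMSO replicate 2 (adjusted p = 0.250), while on the TMM scale it was -1.22 and not called (adjusted p = 0.0949). With A-485 it was -1.71 (SE 0.52, edgeR adjusted p = 0.0228). Without A-485 replicate 1 it was -2.56 and called. Without A-485 replicate 2 it was -1.17, and without DMSO replicate 2 -0.90, and neither was called. The means were 10.9 ± 9.99 under AZ-5576, 5.76 ± 1.45 under JQ1, 7.34 ± 4.69 under A-485 and 24.2 ± 14.8 in DMSO (SD, n = 2 each).

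The labelled share sets new RNA against the standing pool of the same gene in the same library, and so does not use the spike-in. For MYC it was lower with actinomycin D and AZ-5576 and was not called with JQ1 or A-485. The MYC share was 0% in both actinomycin D libraries, where no count allows up to 1.96% and 2.34%. It was 4.52 and 5.11% under AZ-5576, 30.3 and 4.69% under JQ1, 5.65 and 18.3% under A-485, and 22.7 and 26.9% in DMSO. JQ1 replicate 1 lay above both DMSO libraries, with a 95% Wilson interval of 23.1 to 38.6%, and JQ1 replicate 2 below both, with 2.2 to 9.85%. The MYC share fell with AZ-5576 (log2 -2.67, SE 0.71, edgeR adjusted p = 4.1e-04), where 93.6% of 7960 genes tested were lower, and with actinomycin D (edgeR adjusted p = 3.0e-08), where 98.6% were. With JQ1 it was -0.80 on the log2 scale (95% interval -2.12 to 0.52, edgeR adjusted p = 0.435), where 15.4% of genes were lower. It was called at -2.71 without JQ1 replicate 1 (edgeR adjusted p = 0.0252) and had the other sign, 0.41, without JQ1 replicate 2. With A-485 it was -1.36 (95% interval -2.72 to -0.005, edgeR adjusted p = 0.489), where 2.64% of genes were lower, and -0.55 and -2.43 without A-485 replicates 1 and 2.

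**Figure D3:**
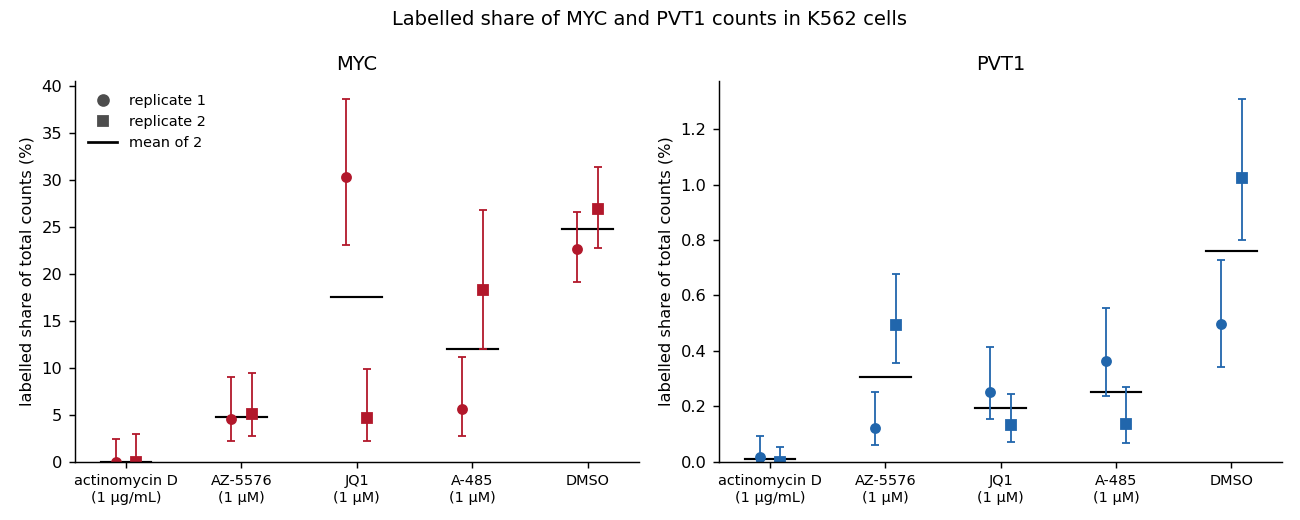
Labelled counts as a percentage of total counts (y axes, from 0, on different scales) of MYC (left) and PVT1 (right) in each library of the 5 groups; points are libraries, bars are 95% Wilson intervals that cover counting error only, and lines are means of 2. The 2 JQ1 libraries of MYC stand at 30.3 and 4.69%, on either side of the 22.7 and 26.9% in DMSO, and every PVT1 drug library lies below the 0.498 and 1.02% in DMSO.

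The PVT1 share was 0.0162 and 0% under actinomycin D, 0.122 and 0.492% under AZ-5576, 0.252 and 0.133% under JQ1, 0.363 and 0.137% under A-485, and 0.498 and 1.02% in DMSO. All drug libraries lay below both DMSO libraries, with AZ-5576 replicate 2 the nearest. The PVT1 share was called lower with actinomycin D (edgeR adjusted p = 9.2e-11), where 98.6% of 7960 genes tested were. With AZ-5576, JQ1 and A-485, in that order, 93.6%, 15.4% and 2.64% of genes were lower. The log2 change of the share was -1.27 under AZ-5576 (SE 0.43, edgeR adjusted p = 0.00493), -2.02 under JQ1 (SE 0.47, adjusted p = 0.00126) and -1.61 under A-485 (SE 0.46, adjusted p = 0.0298). The call with AZ-5576 was lost without AZ-5576 replicate 1 (-0.63) and without DMSO replicate 2 (-0.67), and the change was -2.63 without AZ-5576 replicate 2. The call with JQ1 was lost without DMSO replicate 2 (-1.41), and that with A-485 without DMSO replicate 2 (-1.01) or A-485 replicate 2 (-1.06), while it was -2.46 without A-485 replicate 1. The DESeq2 test of the share called PVT1 with none of these 3 drugs, at adjusted p = 0.0965, 0.170 and 0.809 in that order.

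The drugs were then compared with each other in pairs, each tested over all genes. In total RNA the MYC levels ran in the order A-485, JQ1, actinomycin D, AZ-5576 and DMSO. No neighbouring drugs in that order were called different. MYC stood at 0.06 with JQ1 against A-485 (log2, 95% interval -0.36 to 0.48, edgeR adjusted p = 0.917), where 1.2% of genes were higher, 0.16 with actinomycin D against JQ1 (-0.25 to 0.57, adjusted p = 0.741), where 0.556% were higher, and -0.34 with actinomycin D against AZ-5576 (-0.74 to 0.06, adjusted p = 0.595), where 2.0% were lower. Both AZ-5576 libraries lay above all 6 libraries of the other drugs. AZ-5576 against A-485 gave 0.56 (95% interval 0.15 to 0.97, edgeR adjusted p = 0.0629), where 1.21% of genes were higher, and on the TMM scale 0.66, which was called (adjusted p = 0.0308). AZ-5576 against JQ1 gave 0.50 (0.10 to 0.90, edgeR adjusted p = 0.164), where 0.707% of genes were higher. For PVT1 the largest difference between drugs in total RNA was 0.21, for AZ-5576 against A-485 (95% interval -0.03 to 0.44, edgeR adjusted p = 0.292). It was called on the TMM scale at 0.30 (edgeR adjusted p = 0.0323) and in a fit of these 2 groups alone at 0.21 (adjusted p = 0.0490).

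In labelled RNA the MYC levels ran in the order actinomycin D, AZ-5576, A-485, JQ1 and DMSO. Actinomycin D against AZ-5576, with 0 and 0 against 7 and 9 counts, was called lower (edgeR adjusted p = 5.1e-04), where 20.5% of genes were lower, and not on the TMM scale (adjusted p = 0.194). AZ-5576 against A-485 gave -0.67 (95% interval -1.84 to 0.50, edgeR adjusted p = 0.271), where 91.8% of genes were lower, and 0.21 without A-485 replicate 2. Its sign turned on the TMM scale, to 2.70, and was called there (edgeR adjusted p = 3.1e-04). JQ1 against A-485 gave 0.68 (95% interval -0.31 to 1.67, edgeR adjusted p = 0.321), where 3.14% of genes were higher. It was -1.19 without JQ1 replicate 1, 1.45 without JQ1 replicate 2, where it was called (edgeR adjusted p = 0.0446), and 1.55 without A-485 replicate 2. AZ-5576 against JQ1 was called at -1.35 (SE 0.55, edgeR adjusted p = 0.0179), where 84.9% of genes were lower, but stood at 0.52 without JQ1 replicate 1 and at 1.32 on the TMM scale. That call was also lost without either AZ-5576 replicate, at -1.26 and -1.45, and the value was -2.12 without JQ1 replicate 2.

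For labelled PVT1, AZ-5576 against JQ1 gave 0.93 (95% interval -0.16 to 2.03, edgeR adjusted p = 0.105), where 0.388% of genes were higher. It was called on the TMM scale at 3.60 and without AZ-5576 replicate 1 at 1.63, and had the other sign, -0.58, without AZ-5576 replicate 2. AZ-5576 against A-485 gave 0.59 (-0.48 to 1.66, edgeR adjusted p = 0.291), where 0.325% of genes were higher. It was 1.28 without AZ-5576 replicate 1, where it was called (edgeR adjusted p = 0.0365), -0.93 without AZ-5576 replicate 2 and 1.44 without A-485 replicate 1, and it was 3.94 and called on the TMM scale. JQ1 against A-485 gave -0.34 (-1.49 to 0.80, edgeR adjusted p = 0.698), where 24.8% of genes were lower, and 0.51 without A-485 replicate 1 and 0.34 on the TMM scale. Actinomycin D, with 1 and 0 counts, was called lower than AZ-5576 (7 and 37 counts, edgeR adjusted p = 1.1e-06), JQ1 (15 and 10 counts, adjusted p = 6.8e-05) and A-485 (21 and 8 counts, adjusted p = 7.6e-06) on the spike-in scale, where 20.5%, 95.2% and 98.4% of genes were lower. On the TMM scale the first of these was not called (edgeR adjusted p = 0.0504), and the values turned to 0.09 against JQ1 and 0.43 against A-485 (adjusted p = 0.813).

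Among all genes, the place of MYC in total RNA was nearest the low end with A-485 and JQ1. MYC ranked 81 from the lowest log2 fold change of 14572 genes under A-485, 132 under JQ1, 588 under actinomycin D and 778 under AZ-5576. The median gene stood at -0.04, -0.19, -0.27 and -0.15 in that order of drugs. In labelled RNA MYC ranked 101 from the lowest of 7996 genes with A-485 and 617 with JQ1. With AZ-5576 it ranked 6073, so 75.9% of genes had a lower log2 fold change than MYC. Fitted values of genes with no labelled counts under a drug depend on the prior count. Summed over all genes, spike-scaled labelled RNA under AZ-5576 was at 12.5% of DMSO, against 7.01% for MYC. PVT1 had 96.5% of genes below it in labelled RNA under AZ-5576, 12.2% under JQ1 and 5.54% under A-485. In total RNA it had 85.5% of genes below it under actinomycin D, 85.1% under AZ-5576, 79.8% under JQ1 and 46.1% under A-485. These ranks are descriptions of the fitted values.

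**Figure D4:**
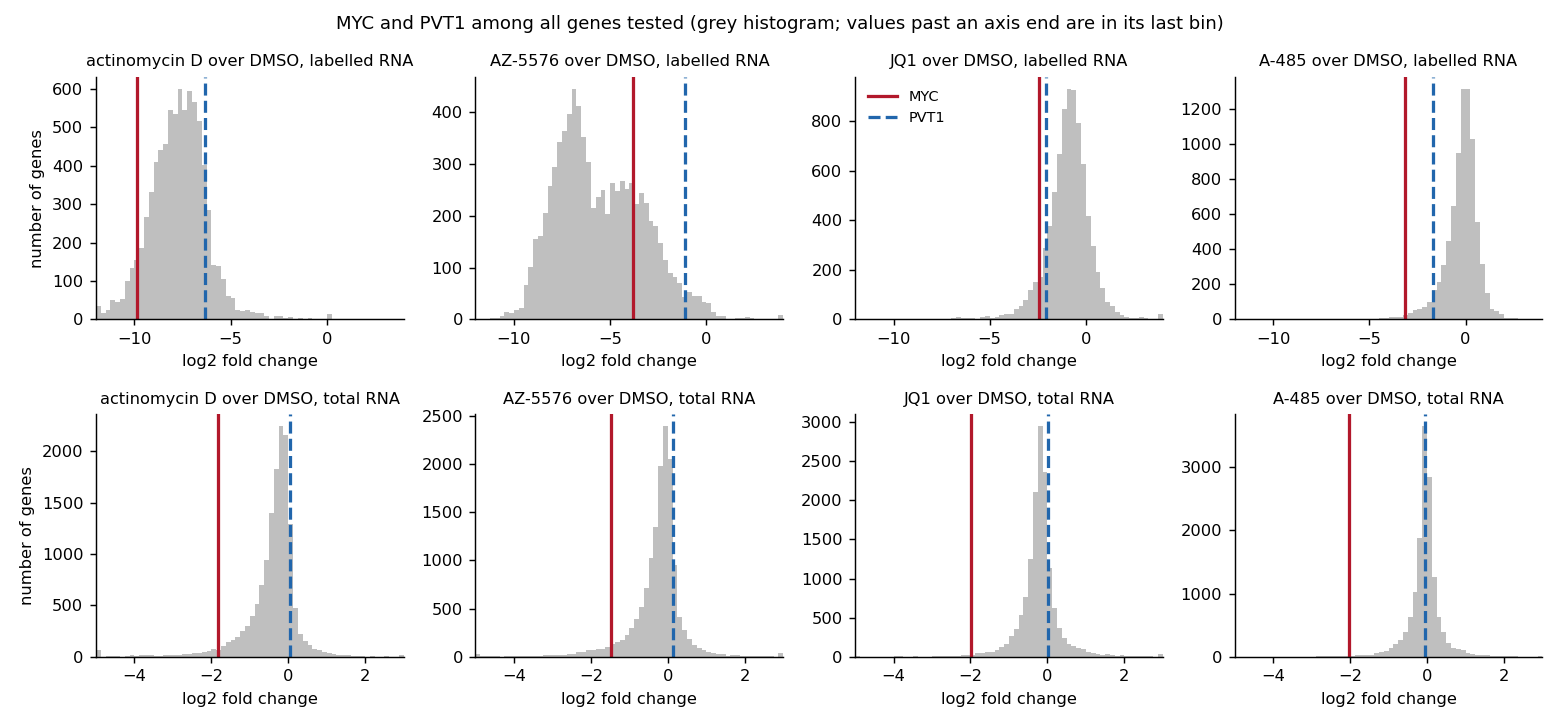
Histograms of log2 fold changes (x axis) over all genes tested (y axis, number of genes) for each drug over DMSO in labelled RNA (top) and total RNA (bottom), with MYC as a solid red line and PVT1 as a dashed blue line. In total RNA MYC lies in the lower tail, at -2.04 with A-485, where the median gene stood at -0.04, and PVT1 lies at -0.06; fitted values of genes with no labelled counts under a drug depend on the prior count.

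Within 3 Mb of MYC the tables list 69 genes, counting MYC and PVT1, and 14 had a mean of at least 10 total counts in DMSO. In total RNA MYC was the only one of these 14 called lower with A-485, where 1.2% of all genes were. TRIB1, a pseudokinase gene whose start lies on the side of MYC away from PVT1, at -2305.1 kb from the MYC start, was the neighbour whose total RNA fell furthest with actinomycin D and AZ-5576. It had 3 and 21 total counts under actinomycin D, 14 and 10 under AZ-5576, 32 and 44 under JQ1, 27 and 28 under A-485, and 55 and 75 in DMSO. All its drug libraries lay below both DMSO libraries. Total TRIB1 was called with actinomycin D (-2.62 on the log2 scale, SE 0.51) and AZ-5576 (-2.49, SE 0.51), and not with JQ1 (-0.99, SE 0.45, edgeR adjusted p = 0.172) or A-485 (-1.33, SE 0.47, adjusted p = 0.262).

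Of the other neighbours in total RNA, the processed pseudogene AC020688.1 was called lower with actinomycin D (-0.57, SE 0.15), AZ-5576 (-0.50, SE 0.15) and JQ1 (-0.54, SE 0.15), and the small RNA pseudogene RN7SL329P with actinomycin D (1 and 7 counts, against 16 and 19 in DMSO). Reads of both may be shared with near-identical copies, so they are uncertain. In all, 4 of the 14 were called lower with actinomycin D, 3 with AZ-5576 and 2 with JQ1, and none higher, where 19.7%, 12.9% and 7.35% of all genes were lower, with medians of -0.33, -0.15 and -0.10 against -0.27, -0.15 and -0.19 over all genes. On the TMM scale the counts were 2, 2 and 1 lower, where 7.91%, 8.30% and 1.98% of all genes were. There 1 was called higher under actinomycin D and 1 under AZ-5576, where 5.43% and 3.75% of all genes were. On the spike-in scale the count with AZ-5576 fell whichever library of AZ-5576 or DMSO was left out. That with actinomycin D fell without its replicate 1 or either DMSO library and rose without its replicate 2. That with JQ1 fell without JQ1 replicate 2 or either DMSO library. The number of all genes called lower fell with each of these drugs whichever library of the drug or DMSO was left out. The long noncoding RNA CCDC26 (499 to 634 total counts in every library), the sterol enzyme gene SQLE, the SUMO ligase gene NSMCE2, the WASH complex gene WASHC5, CYRIB and ASAP1 passed no test in total RNA, nor did ZNF572, AC024681.2 and AC087667.1, which had 5 to 16 total counts in the DMSO libraries.

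**Figure D5:**
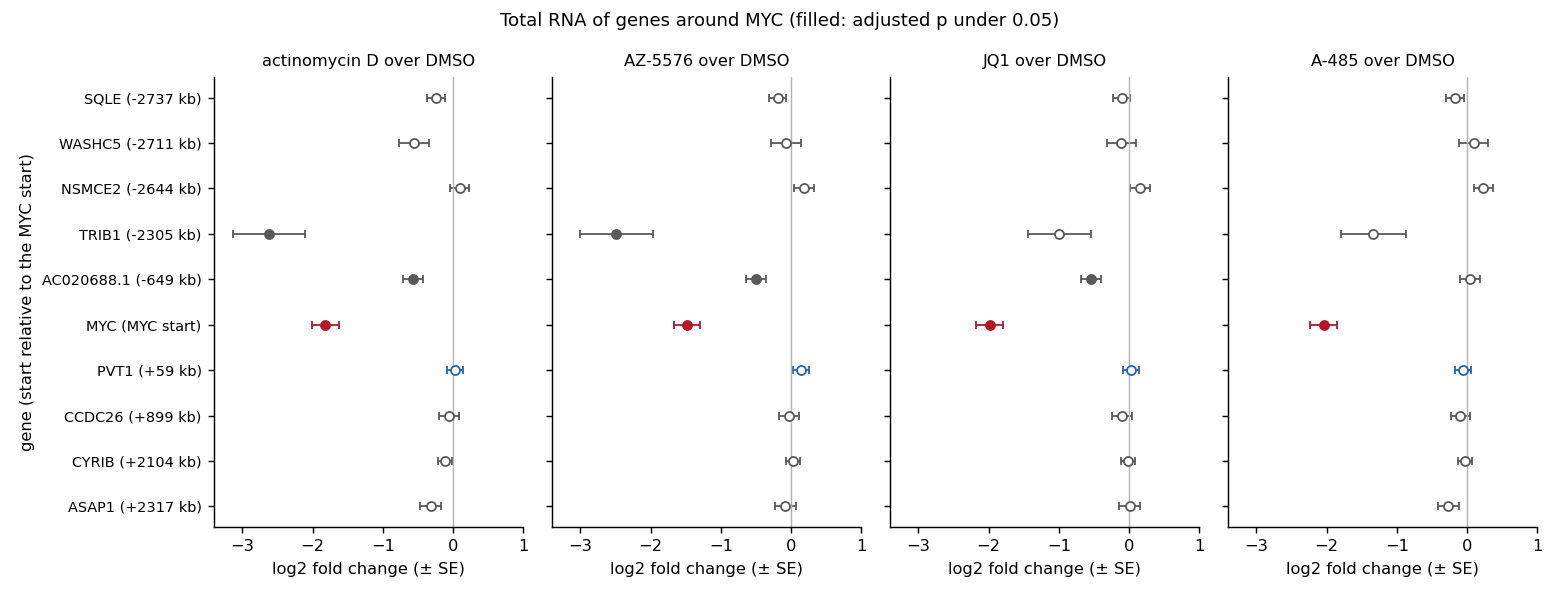
Log2 fold change of total RNA (x axis, with SE) for each drug over DMSO, for genes within 3 Mb of MYC in order of position, given as the distance of their start from that of MYC in kb; MYC is red, PVT1 blue, and filled points have an adjusted p under 0.05. Shown are the 10 of 14 genes with smaller errors under A-485. With A-485 only MYC is filled, and PVT1 stands near 0 with each drug.

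In labelled RNA 10 of these genes could be tested. With A-485 MYC, PVT1 and TRIB1 were called lower, and TRIB1 had 2 and 0 labelled counts, against 14 and 27 in DMSO (-4.30 on the log2 scale, SE 1.06, edgeR adjusted p = 0.00207). That is a count of 3, where 4.86% of all genes were lower. It fell without A-485 replicate 2 or DMSO replicate 2, as did the count over all genes. With JQ1 MYC, PVT1 and WASHC5 were called, where 28.6% of all genes were lower. The count was 1 on the TMM scale, where 5.19% of all genes were lower. Without any 1 library of JQ1 or DMSO the spike-in scale count fell, as did the count over all genes. WASHC5 had 3 and 3 labelled counts with JQ1, against 14 and 17 in DMSO. With actinomycin D and AZ-5576 10 of 10 were lower, where 99.2% and 94.7% of all genes were. On the TMM scale none was lower, where 7.85% and 27.6% of all genes were, and 2 were higher with AZ-5576, where 5.89% were.

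The MYC-MAX network holds MYC itself, its DNA-binding partner MAX, and the related factors that pair with MAX or MLX, among them the repressors MNT, MXD1 and MXI1. In total RNA 5 of 12 tested members were lower under actinomycin D, 4 under AZ-5576, 4 under JQ1 and 2 under A-485, MYC among them each time, and none was higher. Of all genes 19.7%, 12.9%, 7.35% and 1.2% were lower. The medians were -0.32, -0.30, -0.32 and -0.15, against -0.27, -0.15, -0.19 and -0.04 over all genes. MNT was lower with all 4 drugs, at 154 and 188 counts under actinomycin D, 184 and 285 under AZ-5576, 328 and 327 under JQ1, 338 and 283 under A-485, and 441 and 479 in DMSO. Its log2 fold changes were -1.61 (SE 0.18), -1.05 (SE 0.17), -0.71 (SE 0.17) and -0.66 (SE 0.17). MXD1 was called lower with actinomycin D (-1.25, SE 0.23) and AZ-5576 (-1.29, SE 0.24). With TMM scaling 3, 3, 1 and 1 members were lower, where 7.91%, 8.30%, 1.98% and 1.04% of all genes were. On the spike-in scale the count under actinomycin D fell without either of its libraries or DMSO replicate 2. That under AZ-5576 fell without AZ-5576 replicate 1 or DMSO replicate 2, and that under JQ1 without JQ1 replicate 1 or DMSO replicate 2. That under A-485 fell whichever library of A-485 or DMSO was left out. In each of these cases the count over all genes fell too.

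In labelled RNA 10 of 10 network genes were lower under actinomycin D, 9 under AZ-5576, 4 under JQ1 and 1, MYC, under A-485. The shares of all genes lower were 99.2%, 94.7%, 28.6% and 4.86%. With JQ1 MLX, a partner resembling MAX, was called, with 10 and 4 labelled counts, against 62 and 80 in DMSO (-3.54 on the log2 scale, SE 0.54), next to MYC, MXI1 (-1.76, SE 0.69) and MGA (-1.50, SE 0.58). That count of 4 was 2 on the TMM scale, where 5.19% of all genes were lower. On the spike-in scale it fell whichever library of JQ1 or DMSO was left out, as did the count over all genes. With TMM none was lower with actinomycin D, where 7.85% of all genes were. With AZ-5576 4 were lower and 1 higher on that scale, where 27.6% and 5.89% of all genes were.

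Another list holds genes that act on the MYC protein, as partners, ubiquitin ligases or deubiquitinases. Of 28 tested in total RNA, 6 were lower with actinomycin D, 3 with AZ-5576 and 2 with JQ1 (medians -0.17, -0.09 and -0.14), where 19.7%, 12.9% and 7.35% of all genes were. With A-485 none was called by edgeR or DESeq2, and none had an unadjusted p under 0.05 (median -0.01). AURKA, a mitotic kinase that stabilises MYC family proteins, fell by 0.53 with actinomycin D (SE 0.11), fell by 0.60 with AZ-5576 (SE 0.11) and fell by 0.43 with JQ1 (SE 0.11). KAT5, an acetyltransferase recruited by MYC, was called lower with the same 3 drugs. TMM scaling gave 3 lower and 4 higher with actinomycin D, 1 lower and 5 higher with AZ-5576 and none either way with JQ1. Of all genes it called 7.91%, 8.30% and 1.98% lower, and 5.43%, 3.75% and 1.47% higher. The count with actinomycin D fell without either of its libraries or DMSO replicate 2. That with AZ-5576 fell whichever library of AZ-5576 or DMSO was left out. That with JQ1 rose without JQ1 replicate 1 and fell without DMSO replicate 2. In each of these cases the count over all genes fell. In labelled RNA 24 of 24 were lower under actinomycin D, 22 under AZ-5576 and 5 under JQ1, where 99.2%, 94.7% and 28.6% of all genes were. The TMM scale gave none lower under actinomycin D, 4 lower and 5 higher under AZ-5576, and none lower and 1 higher under JQ1. Of all genes 7.85%, 27.6% and 5.19% were lower there, and 5.89% were higher under AZ-5576 and 5.55% under JQ1. The count with JQ1 on the spike-in scale fell whichever library of JQ1 or DMSO was left out, as did the count over all genes. With A-485 none was called in labelled RNA by edgeR or DESeq2, with none lower and 3 higher at an unadjusted p under 0.05.

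Regulators of the MYC gene and its mRNA include chromatin factors and enhancer-binding proteins, among them BRD2, BRD3, CDK9, EP300 and CREBBP, and RNA-binding proteins. In total RNA 11 of 35 were lower under actinomycin D, 8 under AZ-5576, 4 under JQ1 and 2 under A-485 (medians -0.23, -0.15, -0.21 and -0.03), where 19.7%, 12.9%, 7.35% and 1.2% of all genes were. BRD2, a BET protein bound by JQ1, had 6690 and 7109 total counts with JQ1, against 4293 and 4203 in DMSO, and was the only member called higher (0.48, SE 0.10, edgeR adjusted p = 0.00164), where 0.837% of all genes were. It was lower with actinomycin D (-1.26, SE 0.10) and AZ-5576 (-1.27, SE 0.10). GATA1, an erythroid factor that binds at MYC enhancers in K562 cells, fell by 0.43 with JQ1 (SE 0.10) and fell by 0.42 with A-485 (SE 0.10). With TMM 7, 4, 1 and 2 were lower and 2, none, 1 and none higher, for the drugs in the order above. Of all genes 7.91%, 8.30%, 1.98% and 1.04% were lower with TMM, and 5.43%, 3.75%, 1.47% and 0.0892% higher. The count with actinomycin D fell without either of its libraries or DMSO replicate 2. That with AZ-5576 fell without either of its libraries or DMSO replicate 2. Both rose without DMSO replicate 1. That under JQ1 fell without JQ1 replicate 2 or DMSO replicate 2 and rose without JQ1 replicate 1. That under A-485 fell without either A-485 library or DMSO replicate 2. In each of these cases the count over all genes fell.

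In labelled RNA 33 of 33 regulators were lower under actinomycin D, 32 under AZ-5576, 18 under JQ1 and 3 under A-485, where 99.2%, 94.7%, 28.6% and 4.86% of all genes were. With TMM 11 were lower under actinomycin D, where 7.85% of all genes were. Under AZ-5576 15 were lower and 2 higher with TMM, where 27.6% and 5.89% of all genes were. The 3 with A-485 were GATA1, with 7 and 4 labelled counts, against 51 and 34 in DMSO (-3.01, SE 0.67), the mRNA-binding protein gene IGF2BP3 (-1.94, SE 0.57) and the decay factor gene ZFP36L1 (-0.97, SE 0.32). That count fell whichever of the 4 libraries was left out, as did the count over all genes. With JQ1 the lowest of the 4 most abundant called members was NME2, a nucleoside diphosphate kinase gene, at -2.02 (SE 0.30). The JQ1 count fell whichever library of JQ1 or DMSO was left out, as did the count over all genes. On the TMM scale, which moved the median gene up by 0.82, it was 2 lower and 3 higher. Of all genes 5.19% were lower and 5.55% higher on that scale.

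Genes that MYC is known to activate act in ribosome production, nucleotide and polyamine synthesis and growth. Of 36 tested in total RNA, 8 were lower with actinomycin D, 7 with AZ-5576 and 8 with JQ1 (medians -0.14, -0.12 and -0.18), where 19.7%, 12.9% and 7.35% of all genes were. With A-485 none was called by edgeR or DESeq2, with 1 lower and 1 higher at an unadjusted p under 0.05 (median 0.02). Total MYC RNA was at 24.3% of DMSO with A-485 and 25.3% with JQ1, and a link to its targets was not tested. The nucleolar gene NOP16 was called lower with actinomycin D (-0.34, SE 0.10), AZ-5576 (-0.29, SE 0.10) and JQ1 (-0.44, SE 0.10), as was GNL3, a nucleolar GTPase gene, at -0.49, -0.45 and -0.32 (SE 0.11 each). TMM scaling gave counts of 3 lower and 5 higher under actinomycin D, 4 lower and 3 higher under AZ-5576, and 2 lower and 2 higher under JQ1. Of all genes it called 7.91%, 8.30% and 1.98% lower, and 5.43%, 3.75% and 1.47% higher. On the spike-in scale each count fell without DMSO replicate 2 or either library of the drug, as did those over all genes. That under actinomycin D rose without DMSO replicate 1.

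In labelled RNA 34 of 34 targets were lower both under actinomycin D and under AZ-5576, 21 under JQ1 and 2 under A-485, where 99.2%, 94.7%, 28.6% and 4.86% of all genes were. With TMM 19 were lower under actinomycin D, where 7.85% of all genes were. Under AZ-5576 21 were lower and 1 higher with TMM, where 27.6% and 5.89% of all genes were. SRM, spermidine synthase, had 56 and 55 labelled counts with JQ1, against 215 and 178 in DMSO (-2.04, SE 0.27), and the helicase gene DDX21 was at -1.13 (SE 0.18). The JQ1 count fell whichever library of JQ1 or DMSO was left out, as did the count over all genes. On the TMM scale it was 6 lower and 3 higher, where 5.19% and 5.55% of all genes were. With A-485 the 2 were TFRC, the transferrin receptor (-0.86, SE 0.23), and CCND2, a G1 cyclin (-3.03, SE 0.76). That count fell whichever of the 4 libraries was left out, as did the count over all genes. The medians with JQ1 and A-485 were -1.07 and 0.02, against -0.85 and -0.09 over all genes.

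The genes whose total RNA followed a pattern most like that of MYC over the 10 libraries were found by the root mean square difference of log2 levels, each relative to its DMSO mean. Over 10408 genes the nearest were PLAU at 0.416, BHLHE40 at 0.459, DLGAP1-AS2 at 0.470, ZNF792 at 0.478 and CASS4 at 0.502, where 1% of genes were nearer than 0.877 and the median was 1.51. BHLHE40, a transcriptional repressor gene, stood at -2.45 under actinomycin D, -1.71 under AZ-5576, -1.47 under JQ1 and -2.04 under A-485. With a pseudocount of 10 in place of 1, 2 of these 5 stayed among the nearest. With at least 200 counts in DMSO only BHLHE40, at a mean of 218.5, could stay, and it did. The others had means of 82.5 to 177.5 and were removed by that filter, so it could not test their place. The genes most like PVT1 were HEPH at 0.0358, LINC01610 at 0.0474, PKM at 0.0534, AAAS at 0.0548 and FKBP1A at 0.0562, where the median of all genes was 0.292. HEPH, a copper-dependent iron oxidase gene, had a labelled share in DMSO of 2.18%, PKM, pyruvate kinase, of 1.43%, and AAAS, a nuclear pore gene, of 0.166%. The 5 genes nearest to PVT1 thus ran from 0.166 to 2.18%, against 0.783% for PVT1, and the 5 nearest to MYC had shares of 11.9 to 34.8%, against 24.6% for MYC.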

How the data were processed

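The authors deposited 3 tables of raw counts per gene, per the file headers, holding all human reads, human reads with T-to-C conversions, and reads of the fly spike-in. All values were whole. RNA was alkylated with iodoacetamide, cleaned, mixed with 5% S2 fly RNA and made into QuantSeq 3′ libraries, per the labels' protocols. The submitters' processing notes name Trim Galore 0.6.5, bcl2fastq 2.17.1.14 and bedtools, with the builds hg38 and dm6. Aligner, conversion caller and strand setting: not given in the sources used here. GENCODE release 29 supplied positions, and held 55838 of 59204 identifiers.

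The quasi-likelihood test of edgeR 4.0.16 (R 4.3.3, robust, two-sided) was the main test. Spike-in totals, from 1817677 to 2212752, served as library sizes. All 10 libraries entered 1 fit, which left 5 residual degrees of freedom. Genes needed 10 or more counts in 2 or more libraries, and were called at a Benjamini-Hochberg adjusted p under 0.05 over all genes of a comparison. Labelled and unlabelled counts were fitted together for the share. The common coefficient of biological variation came to 24.8% (labelled RNA), 10.9% (total RNA) and 17.8% (share). The fits were run on simulated counts for A-485 against DMSO. Alternatives were TMM, DESeq2 size factors, the DESeq2 1.42.0 test, other filters, fits of 2 groups, a replicate block, and leaving out each library. Intervals of log2 fold changes come from the fits and include spread between libraries. The intervals of counts, levels and shares, and the limit of 3 counts, cover counting error only. Reads that lack molecular identifiers are not independent molecules, so those intervals may be too narrow.

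MYC, PVT1 and the gene lists were chosen with earlier results of these data known, so no p is given for a list. Named genes were MYC, PVT1, neighbours with a mean of 10 or more total counts in DMSO, up to 4 called members of each list per comparison by total counts in DMSO, and the 5 genes most like each in pattern. The drug pairs beyond actinomycin D against AZ-5576, AZ-5576 against JQ1 and JQ1 against A-485 were added after seeing the data.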

Additional observations from a re-analysis of the deposited data

How the results depend on the processing

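The falls of total MYC RNA and of labelled MYC RNA with JQ1 and A-485 kept their direction and their call under every alternative run. Of the values tested again for the comparisons above, 393 kept direction and call, 32 lost their call, 19 gained one and 28 changed sign. TMM and DESeq2 size factors centre each library on its own genes and not on the spike-in. MYC had 0 and 0 labelled counts under actinomycin D, so its fitted values there depend on the prior count and are not measured sizes. In labelled RNA against DMSO, with TMM first and size factors second, MYC lost its call with actinomycin D (-8.90 and -9.01) and AZ-5576 (-0.32 and -0.81), PVT1 lost it with actinomycin D (-1.13 and -1.01) and JQ1 (-1.22 and -1.38), and PVT1 changed sign with AZ-5576 (2.38 and 1.88). Between drugs the same scalings gave, for actinomycin D against AZ-5576, -8.59 and -8.20 for MYC and -3.51 and -2.90 for PVT1, neither called. For AZ-5576 against JQ1 they gave 1.32 and 0.99 for MYC, with changed sign, and 3.60 and 3.26 for PVT1, now called. For AZ-5576 against A-485 they gave 2.70 and 2.36 for MYC, with changed sign, and 3.94 and 3.61 for PVT1, now called. For JQ1 against A-485 MYC was called at 1.38 with TMM and PVT1 changed sign (0.34 and 0.35), as it did for actinomycin D against JQ1 (0.090 and 0.36) and against A-485 (0.43 and 0.71). In total RNA PVT1 was called higher with actinomycin D (0.29 both) and AZ-5576 (0.30 both), and in AZ-5576 against A-485 MYC (0.66 both) and PVT1 (0.30 both) were called. A fit of AZ-5576 and A-485 alone called total PVT1 at 0.21. In fits of 2 groups alone labelled MYC did not pass the filter in the pairs of AZ-5576 with JQ1 and A-485, nor did either gene for actinomycin D against AZ-5576, nor PVT1 for actinomycin D against A-485. The DESeq2 test did not call labelled PVT1 with AZ-5576 (-1.14) or A-485 (-1.72), MYC in AZ-5576 against JQ1 (-1.35), or the PVT1 share with AZ-5576 (-1.44), JQ1 (-1.97) and A-485 (-1.64). Over all genes, those lower in labelled RNA numbered 628 with TMM and 496 with size factors, against 7933, for actinomycin D, 2206 and 3414, against 7574, for AZ-5576, and 415 and 491, against 2286, for JQ1. In total RNA they numbered 1153 and 1149, against 2874, for actinomycin D, 1210 and 1208, against 1878, for AZ-5576, and 288 and 290, against 1071, for JQ1. With TMM 791, 546 and 214 genes were higher in total RNA for these 3 drugs, against 49, 114 and 122. A filter of 30 counts left 3979 and 3910 genes lower in labelled RNA and 3966 and 3887 in the share for actinomycin D and AZ-5576, since fewer genes were tested, and the DESeq2 test called 300 shares lower for JQ1 and 76 for A-485, against 1225 and 210. A fit of A-485 and DMSO alone called 290 genes lower in total RNA, against 175. Without a filter labelled PVT1 with A-485 was -1.71 and not called (adjusted p = 0.0525).

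The deviations of libraries with the same replicate number had correlations of -0.0623 to 0.223, over 0.1 in 6 of 10 pairs of groups. Since not every pair was over 0.1, the numbers were not taken to pair the libraries. With the replicate block labelled PVT1 with A-485 was -1.59 and not called (adjusted p = 0.0871), total MYC in AZ-5576 against A-485 was called at 0.57 (adjusted p = 0.0379), and no other call of MYC or PVT1 changed. The genes lower in total RNA with JQ1 numbered 1972 with the block, against 1071 without it.

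With each library left out, the log2 values ranged as follows where a call or sign changed. In labelled RNA PVT1 ran from -2.64 to -0.31 with AZ-5576, -2.57 to -1.24 with JQ1 and -2.56 to -0.90 with A-485. MYC ran from -2.12 to 0.52 in AZ-5576 against JQ1, -1.19 to 1.55 in JQ1 against A-485 and -1.21 to 0.21 in AZ-5576 against A-485. PVT1 ran from -0.58 to 1.63, -0.88 to 0.51 and -0.93 to 1.44 in the same pairs. In total RNA PVT1 ran from -0.11 to 0.19 with actinomycin D, -0.19 to 0.21 with JQ1, -0.20 to 0.095 with A-485, -0.22 to 0.00070 in actinomycin D against AZ-5576, -0.062 to 0.33 in AZ-5576 against JQ1 and -0.13 to 0.27 in JQ1 against A-485. Total MYC ran from -0.066 to 0.20 in JQ1 against A-485 and -0.032 to 0.34 in actinomycin D against JQ1. The share of MYC ran from -2.71 to 0.41 with JQ1, and that of PVT1 from -2.63 to -0.63 with AZ-5576, -2.51 to -1.41 with JQ1 and -2.46 to -1.01 with A-485. Over all genes, fewer were called lower in every comparison with DMSO when any 1 library of the drug or DMSO was left out. The cause of these changes was not tested. Labelled counts of 0 to 63 per library limit what can be said of PVT1 and of MYC under the drugs.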
